A study of Mus musculus with 16 samples.

Results

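Brain long noncoding RNAs, namely *Malat1*, *Meg3*, *Miat*, *Neat1*, *Rian*, *Mirg*, *Snhg11*, *Snhg12*, *Snhg14* and *Abhd11os*, were followed by their gene names through full-length transcript counts of mouse cortex and striatum. They are 10 of the 24035 annotated genes with a read, and they took 78323 of the 10519014 reads of annotated genes and 770 of the 567624 isoforms with a read. The samples were taken from 3-month-old male R6/2 mice of the strain B6CBA-Tg(HDexon1)62Gpb/3J, whose transgene Tg(HDexon1)62Gpb is a human mutant *HTT* exon 1 under the human *HTT* promoter, and from non-transgenic (NT) mice without it. The mice of both genotypes were perfused, and the left hemisphere was used. Each region and genotype had 4 samples, 16 in all, and each read was 1 poly(A) cDNA sequenced end to end by PacBio Iso-seq. R6/2 expresses only a fragment of mutant huntingtin in addition to both mouse *Htt* alleles, which limits it as a model of Huntington's disease.

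Long noncoding RNAs act as RNA rather than through a protein. *Malat1* and *Neat1* are nuclear RNAs that lie side by side in the genome. *Malat1* collects in nuclear speckles, and *Neat1* is the scaffold of paraspeckles. *Meg3*, *Rian* and *Mirg* are transcribed from the maternal allele of the imprinted Dlk1-Dio3 domain, where they host microRNAs and small nucleolar RNAs (snoRNAs). *Snhg11* and *Snhg12* are spliced host genes whose introns give rise to snoRNAs. *Snhg14* is the long host of paternally expressed snoRNA clusters and runs antisense to *Ube3a*. *Miat* is a spliced nuclear RNA of neurons, and *Abhd11os* is transcribed opposite *Abhd11*, an enzyme gene, and is known for its enrichment in the striatum.

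In the mm10 annotation (GENCODE M21) the *Abhd11os* gene (ENSMUSG00000085042) lies on the minus strand at chr5:135012114-135013253, is typed as a transcribed unitary pseudogene and overlaps the 3′ end of *Abhd11* by 62 nt. *Malat1* lies at chr19:5795690-5802672 and *Neat1* at chr19:5824708-5845478, both on the minus strand. *Meg3* lies at chr12:109541001-109571726, *Rian* at chr12:109603940-109661716 and *Mirg* at chr12:109729764-109749460, all on the plus strand. *Snhg11* lies at chr2:158375638-158386145 and *Snhg12* at chr4:132308623-132311024 on the plus strand, and *Snhg14* at chr7:59307924-59975759 and *Miat* at chr5:112213228-112229395 on the minus strand. This annotation types *Snhg11* as protein coding, although it is listed here among the long noncoding RNAs.

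The ends of *Malat1* and *Neat1* bear on what a poly(A) library holds. *Malat1* and the long *Neat1* isoform are known to be cut by RNase P behind an A-rich tract and then lack an ordinary poly(A) tail. The tract (capitals, 18 nt with a run of 12 A) ends 292 nt before the annotated end of the 6983-nt *Malat1* transcript. The corresponding tract of the long *Neat1* isoform (capitals, 11 nt with a run of 5 A) forms its annotated end. The stretches below are exonic, lie on the minus strand of GRCm38 at chr19:5795924-5796041 and chr19:5824708-5824767, and are written 5′ to 3′. The files give no read ends, so it was not tested where reads of these genes ended.
Malat1 A-rich tract: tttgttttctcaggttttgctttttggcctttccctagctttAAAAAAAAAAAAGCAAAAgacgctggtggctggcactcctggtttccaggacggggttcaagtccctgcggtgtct
Neat1 long isoform end: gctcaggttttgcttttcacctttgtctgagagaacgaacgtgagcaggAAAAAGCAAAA

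Promoters (250 bases before to 50 after the start, from RefSeq on GRCm38.p6) were matched for 9 of the 10 genes. They are shown for *Abhd11os*, which had the largest difference between genotypes of the RNAs tested, and for *Snhg12*, which was higher in R6/2 mice in both regions. The motifs searched on both strands were TATAAA, which is the core of many promoters, CCAAT, which the factor NF-Y binds, GGGCGG, which factors of the Sp family bind, and TGACG, the core of a cyclic AMP response element. The whole element TGACGTCA, which contains the last of these, was searched too. Of 32851 promoters of the same length, 13.6% held TATAAA, 37.4% CCAAT, 35.7% GGGCGG, 20.8% TGACG and 1.79% TGACGTCA. The *Abhd11os* promoter (chr5:135013108-135013407, minus strand) held 1 GGGCGG and 1 CCAAT, read here as ATTGG. The *Snhg12* promoter (chr4:132308428-132308727, plus strand) held TGACG 2 times, once on each strand. Capitals mark these matches, which describe the letters only. The *Meg3* promoter at chr12:109540746-109541045 held 1 whole TGACGTCA and 2 TATAAA, and that of *Malat1* held 3 TGACG.
Abhd11os promoter: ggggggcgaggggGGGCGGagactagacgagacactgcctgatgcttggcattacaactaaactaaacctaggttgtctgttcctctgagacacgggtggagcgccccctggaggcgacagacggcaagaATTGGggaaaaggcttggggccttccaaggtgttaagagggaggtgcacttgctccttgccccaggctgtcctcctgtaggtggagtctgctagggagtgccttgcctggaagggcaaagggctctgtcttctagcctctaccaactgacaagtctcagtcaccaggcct
Snhg12 promoter: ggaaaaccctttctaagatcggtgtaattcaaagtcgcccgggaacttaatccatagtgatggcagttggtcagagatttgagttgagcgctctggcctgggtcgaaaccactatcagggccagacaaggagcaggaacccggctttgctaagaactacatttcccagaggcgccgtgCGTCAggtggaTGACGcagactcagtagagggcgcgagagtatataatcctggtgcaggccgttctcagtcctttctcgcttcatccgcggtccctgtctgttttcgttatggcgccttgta

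Reads per sample lay between 252885 and 1496196. Counts came in 2 sets, summed here, for samples 1 and 2 of NT striatum and 2 and 3 of R6/2 striatum, and these samples stood apart from the other 4 striatal samples. Their mean isoform length was 2125 to 2197 nt, against 1589 to 1840 nt in striatal samples with 1 set. Mitochondrial reads made up 0.368 to 0.767% of their reads, against 1.22 to 2.63%, and genomic reads 5.30 to 6.07%, against 8.71 to 12.2%. Each genotype held 2 of them, and the number of count sets was a term in every fit with striatal samples. The summed level of 8 markers of striatal projection neurons was 9208 to 12893 CPM in NT striatum and 341 to 425 CPM in NT cortex. That of 6 cortical excitatory neuron markers was 0 to 41.6 CPM in NT striatum and 117 to 159.6 CPM in NT cortex. The summed level of 4 choroid plexus markers reached 9192 CPM in 1 NT striatum sample. The highest value was 307 CPM in R6/2 striatum, 930 CPM in NT cortex and 1548 CPM in R6/2 cortex. The medians were 188 and 158 CPM in NT and R6/2 striatum and 29.0 and 610 CPM in NT and R6/2 cortex. The transgene was not analysed here.

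Levels are given in CPM, gene reads scaled to the normalized library, from reads of known, ISM (incomplete splice match), NIC (new in catalog) and NNC (new not in catalog) isoforms. Reads of the genomic class, which match no complete transcript and may stem from unspliced RNA or genomic DNA, are given apart. *Malat1* held most of the reads of the 10 genes (61512 gene reads), followed by *Meg3* (8032) and *Snhg11* (3366). *Snhg12* had 392, *Rian* 177, *Abhd11os* 112, *Miat* 108, *Snhg14* 104, *Neat1* 54 and *Mirg* 20 gene reads over the 16 samples.

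**Figure D1:**
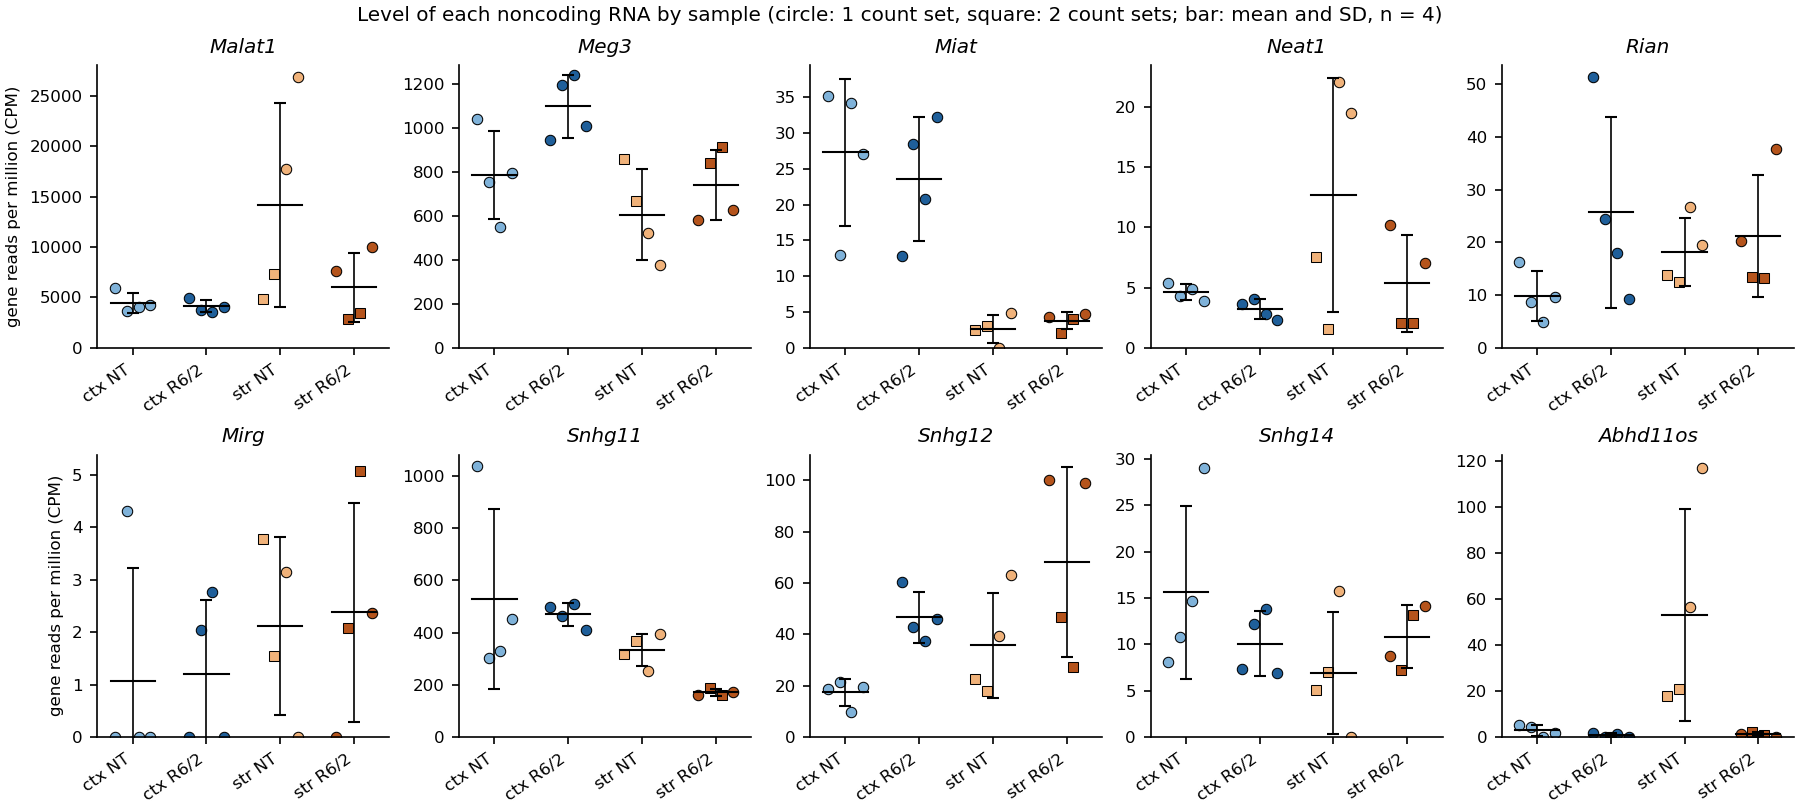
Level of each of the 10 RNAs in CPM (vertical axis, linear from 0, a scale of its own in each panel) in cortex (ctx) and striatum (str) of NT and R6/2 mice. Points are samples (circle, 1 count set; square, 2 count sets) and lines the mean with SD of 4 samples. *Abhd11os* lies above 17 CPM in all 4 NT striatum samples and at or below 5.41 CPM in the other 12 samples.

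*Abhd11os* was the RNA with the clearest difference. In NT striatum it had 14, 27, 36 and 24 reads in samples 1 to 4 (17.7, 21.0, 56.7 and 117 CPM), and in R6/2 striatum 1, 2, 1 and 0 reads (1.45, 2.07, 1.02 and 0 CPM). The 2 genotypes did not overlap. Pooled over samples, 4 reads in R6/2 against 101 in NT mice made a ratio of 0.0378 (95% interval 0.0101 to 0.0997, counting error only), which is 26.5-fold lower. The fit across all genes gave a log2 fold change of -4.77 (SE 0.53, adjusted p = 2.7e-04, edgeR's quasi-likelihood test with Benjamini-Hochberg adjustment). It stayed between -5.46 and -4.37 when each sample was left out in turn. In the 6 other settings that could test it, by edgeR or DESeq2, the adjusted p was at most 0.049. Within each number of count sets the ratio rested on few R6/2 reads, and the 2 intervals overlapped. With 1 set, 1 read in R6/2 against 60 in NT mice made a ratio of 0.0126 (95% interval 3.1e-04 to 0.0729), and with 2 sets, 3 against 41 reads made 0.0781 (0.0155 to 0.245).

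In cortex *Abhd11os* was at the floor of detection, with 2, 2, 0 and 1 reads in NT and 1, 0, 1 and 0 reads in R6/2 samples. Reads in NT striatum exceeded those in NT cortex by a ratio of 10.8 (95% interval 4.47 to 33.9, pooled reads 101 against 5). In R6/2 mice the regions had 4 and 2 reads, a ratio of 1.43 (0.205 to 15.8), so a difference between the regions was not detectable at this depth. *Abhd11*, its partner on the other strand, had 27.7 to 63.3 CPM in NT and 21.3 to 40.1 CPM in R6/2 striatum, and its log2 difference of -0.20 did not pass the test. *Abhd11os* reads are strand-specific, because full-length poly(A) reads carry their direction.

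The *Abhd11os* reads differed from the annotated transcripts. No read was of the known class and 95.6% were ISM. The isoform TALONT000759999 (3 exons, 801 nt) had 72 reads and TALONT000759998 (2 exons, 898 nt) had 37. Both are suffix matches, which share the 3′ part of a known transcript. In NT striatum the first took 54.2 to 77.8% and the second 22.2 to 42.9% of the gene's reads in each sample. An NNC isoform (TALONT000889328, 3 exons) had the other 3 reads, all in NT striatum.

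Markers of striatal projection neurons moved in the same direction as *Abhd11os*. Their summed level was 1591 to 2584 CPM in R6/2 striatum against 9208 to 12893 CPM in NT striatum, without overlap, and 6 of 8 tested fell (*Drd2*, *Adora2a*, *Ppp1r1b*, *Penk*, *Rgs9* and *Pde10a*), with a median log2 difference of -2.17 over the 8. In bulk tissue, fewer cells of a type and less RNA per cell cannot be told apart, and the part of these markers in the *Abhd11os* result was not tested. Astrocyte markers also summed to less in R6/2 mice without overlap, at 1207 to 1709 against 1850 to 3640 CPM in striatum and 1200 to 1637 against 2062 to 3311 CPM in cortex. Of 5 tested, 1 fell in each region (*Aldoc*, -1.14 in striatum and -1.28 in cortex), with 1 in striatum and 4 in cortex at an unadjusted p under 0.05 and medians of -0.24 and -0.54. Their part in the differences of *Abhd11os*, *Malat1* and *Snhg11* was not tested. Over all 16 samples the genes whose log2 CPM was most like that of *Abhd11os*, among 4757 genes with at least 20 reads per sample on average, were *Ppp1r1a* (Pearson r = 0.92), *Rgs7bp* (r = 0.91) and *Phactr1* (r = 0.91). These points share the region and genotype groups and the difference in count sets, and r is given as a description.

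Of the 6 RNAs of the list that passed the filter on low counts in striatum, 4 differed between genotypes: *Abhd11os*, *Malat1* and *Snhg11* fell and *Snhg12* rose, against a background of 4.34% of all tested genes. *Abhd11os* passed the filter only through NT striatum, the group where it was high, so its place among the 6 is not independent of its difference. *Meg3* and *Rian* were tested and did not pass, and *Miat*, *Neat1*, *Mirg* and *Snhg14* had too few reads. The median log2 difference was -0.44 over the 6 RNAs and -0.0020 over all tested genes. In cortex 5 RNAs were tested and 1, *Snhg12*, rose, against 3.22% of all tested genes, with a median of -0.10 over the 5 and 0.017 over all genes.

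**Figure D2:**
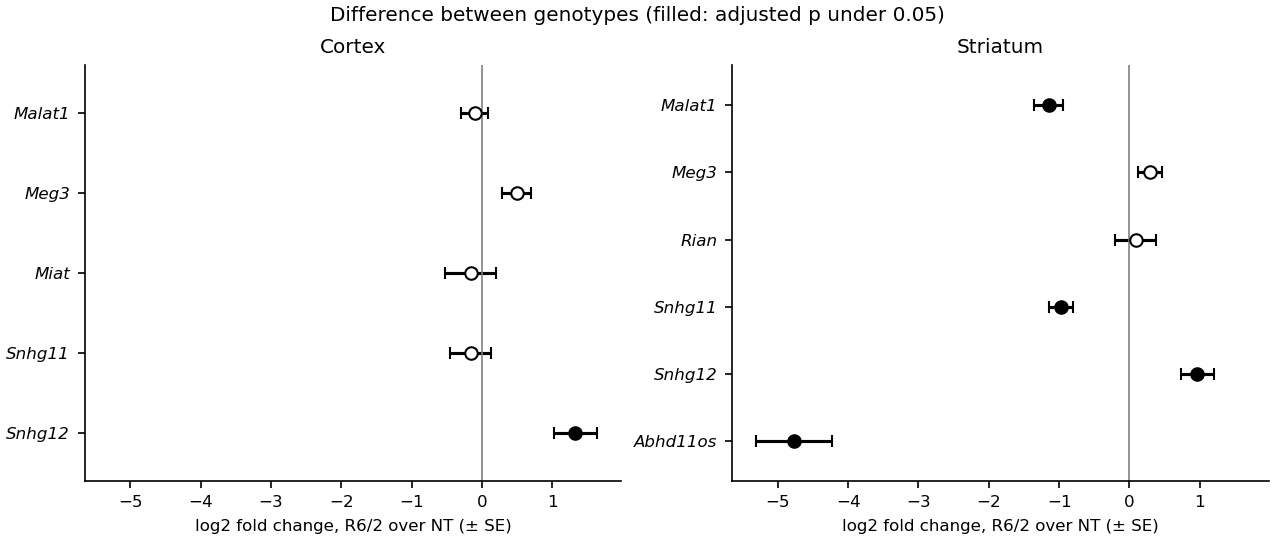
Log2 fold change of R6/2 over NT mice (horizontal axis, with SE) for the RNAs tested in cortex (left) and striatum (right). Filled points have an adjusted p under 0.05: *Snhg12* in cortex (1.33) and *Malat1*, *Snhg11*, *Snhg12* and *Abhd11os* in striatum (-1.15, -0.97, 0.97 and -4.77).

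*Malat1* varied widely among the striatal samples. In striatum it had 4817, 7284, 17779 and 26819 CPM in NT samples 1 to 4 and 7649, 2895, 3446 and 9984 CPM in R6/2 samples 1 to 4. The genotypes overlapped when all samples were set side by side, but not among samples with the same number of count sets. That split sets 2 samples against 2, where a lack of overlap is weak evidence. With 1 set the NT samples (17779 and 26819 CPM) lay above the R6/2 samples (7649 and 9984 CPM), and with 2 sets NT (4817 and 7284 CPM) again lay above R6/2 (2895 and 3446 CPM). The fit with the count-set term gave a log2 fold change of -1.15 (SE 0.21, adjusted p = 0.00699), and without the term the same difference of -1.26 did not pass (adjusted p = 0.61).

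In cortex *Malat1* had 5929, 3624, 4032 and 4284 CPM in NT and 4946, 3797, 3590.0 and 4076 CPM in R6/2 samples. These ranges overlapped, the log2 difference was -0.10 (SE 0.19, adjusted p = 0.84), and without NT sample 1 it was 0.06. The group medians rose from R6/2 cortex (3936 CPM) over NT cortex (4158 CPM) and R6/2 striatum (5548 CPM) to NT striatum (12532 CPM), and the 2 cortical groups did not differ beyond their spread. The difference between the genotype effects of the 2 regions was -1.01 on the log2 scale (unadjusted p = 0.00114, adjusted p = 0.55), which did not pass over all genes. None of the 6 RNAs tested for this interaction passed with edgeR or with DESeq2, 1 of 6 had an unadjusted p under 0.05, and the background was 0.0406% of genes.

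Striatal samples with 2 count sets differed from those with 1 in many genes (30.4% of all tested), and in 4 of the 6 tested RNAs. *Abhd11os* was lower in samples with 2 sets by -1.95 on the log2 scale (adjusted p = 0.0036), *Malat1* by -1.85 (3.8e-05), *Snhg12* by -1.52 (3.2e-04) and *Rian* by -1.15 (0.010). *Snhg11* (-0.08, adjusted p = 0.77) and *Meg3* (0.47, 0.052) did not pass. The 2 sets of 1 sample also differed from each other by more than sampling noise, with a chi-square of 2.50 to 3.24 per gene. *Malat1* was 1.14 to 1.64 times as high in the second set as in the first in these 4 samples. *Abhd11os* had 2 reads in the first and 12 in the second set of NT sample 1. Relative to the reads of the set this was 5.24 times as high (95% interval 1.17 to 48.2). In NT sample 2 it had 7 and 20 reads (3.04 times, 1.23 to 8.5). In R6/2 sample 2 it had 1 and 1 reads and in R6/2 sample 3 0 and 1 reads, too few to compare. What the sets are is not given in the sources used here, beyond a label that speaks of 2 replicates.

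**Figure D3:**
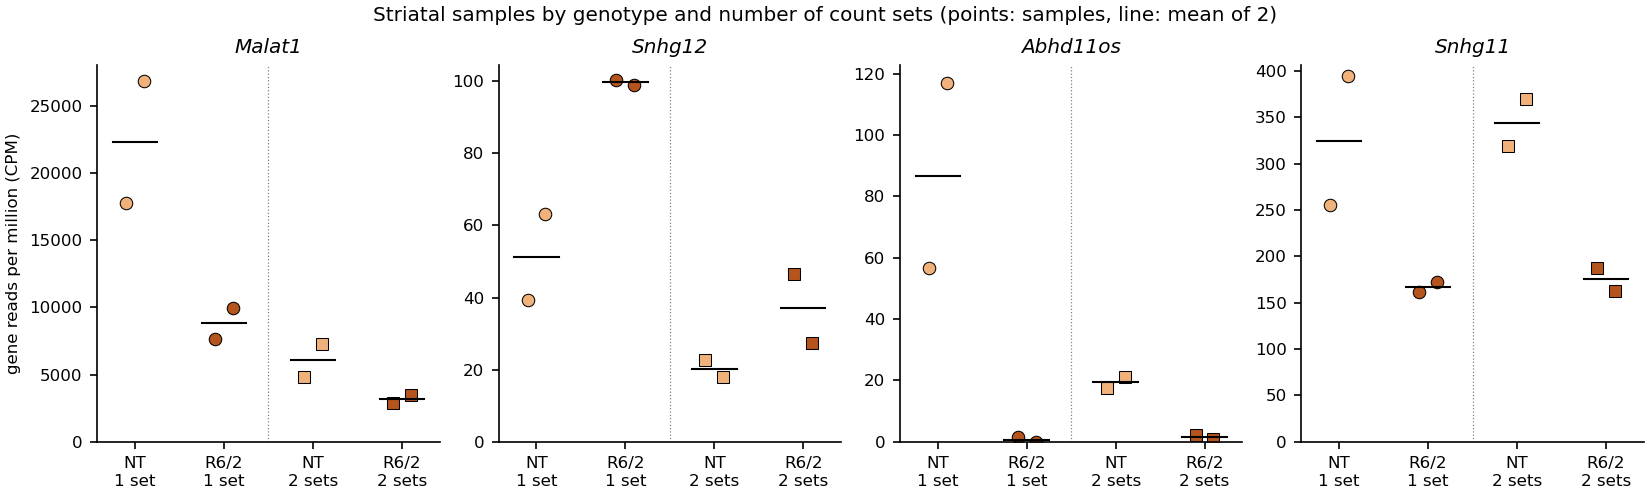
CPM of *Malat1*, *Snhg12*, *Abhd11os* and *Snhg11* (vertical axes, linear from 0) in striatal samples, split by genotype and number of count sets. Points are samples and lines the mean of 2. *Malat1*, *Snhg12* and *Abhd11os* in NT mice are lower with 2 sets than with 1, and within each number of sets the genotypes do not overlap for any of the 4 RNAs. The 4 RNAs shown are those called in striatum by the fit with the count-set term. Each such comparison sets 2 samples against 2, and the share of all genes that separate this way was not counted.

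*Snhg11* was lower in R6/2 than in NT striatum. It had 319, 369, 255 and 394 CPM in NT striatum and 161, 188, 163 and 172 CPM in R6/2 striatum, so every R6/2 sample lay below every NT sample. The log2 fold change was -0.97 (SE 0.17, adjusted p = 0.00554), which is 1.96-fold lower, and it was -0.96 within samples of 1 count set and -0.97 within samples of 2. Without the count-set term the same size (-0.98) had an adjusted p of 0.097. In cortex *Snhg11* had 1039, 301, 332 and 451 CPM in NT and 499.9, 462, 508 and 410.3 CPM in R6/2 samples. NT sample 1 stood well above the other 7, and the log2 difference of -0.16 (adjusted p = 0.84) turned to 0.38 without it. Pan-neuronal markers summed to 2505 to 4424 CPM in NT and 2056 to 2851 CPM in R6/2 striatum, and 1 of 5 fell (*Rbfox3*, -0.77). All 5 had an unadjusted p under 0.05, with a median log2 difference of -0.57 and values from -0.77 to 0.64 (*Stmn2*). Their part in the *Snhg11* result was not tested.

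*Snhg12* was the RNA of the list that rose in both regions. In cortex it had 18.9, 21.5, 9.75 and 19.3 CPM in NT and 60.4, 42.8, 37.4 and 46.1 CPM in R6/2 samples, without overlap. The log2 fold change was 1.33 (SE 0.31, adjusted p = 0.0176), a rise of 2.51-fold on 29 pooled reads in NT and 101 in R6/2 mice. Leaving out NT sample 4 or R6/2 sample 1 raised the adjusted p to 0.054 and 0.073.

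In striatum *Snhg12* had 22.7, 17.9, 39.4 and 63.3 CPM in NT and 100.3, 46.6, 27.4 and 99.0 CPM in R6/2 samples. The genotypes overlapped over all samples but not within a number of count sets, where R6/2 samples were 1.94 times (1 set) and 1.83 times (2 sets) as high as NT samples on average. Each of these compares 2 samples with 2. The log2 fold change was 0.97 (SE 0.24, adjusted p = 0.0368). This call rests on single samples, since it was lost without NT sample 2 or 3 or R6/2 sample 1, 2 or 4 (adjusted p 0.074 to 0.14), and without the count-set term (0.61).

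Other snoRNA host genes were read for comparison from a list of 16. In striatum 1 of 8 tested rose (*Zfas1*, 0.97, SE 0.25, adjusted p = 0.0487) with a median log2 difference of 0.21, while DESeq2 called 0. In cortex 0 of 4 passed with edgeR or DESeq2, 2 had an unadjusted p under 0.05, and the median was 0.49. Between regions 3 of 6 tested were higher in striatum in NT mice (*Gas5*, *Snhg8* and *Zfas1*, by 2.01, 1.89 and 1.43 on the log2 scale) and 4 of 6 in R6/2 mice, against backgrounds of 33.4% and 27.3% of genes. Without the count-set term 0 of these hosts passed in either comparison (adjusted p of 0.051 to 0.81 for those called with it), nor did *Zfas1* between genotypes.

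*Meg3* did not differ between genotypes by the test in either region. In cortex it had 1041, 756, 551 and 797 CPM in NT and 949, 1198, 1243 and 1009.7 CPM in R6/2 samples, which overlap only through NT sample 1. The log2 difference was 0.49 (SE 0.21, adjusted p = 0.22), and without NT sample 1 it was 0.65 with an adjusted p of 0.047. In striatum it had 859, 669, 524 and 375 CPM in NT and 583, 843, 913 and 627 CPM in R6/2 samples, a log2 difference of 0.29 (SE 0.17, adjusted p = 0.41).

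*Rian*, from the same imprinted domain, had 16.2, 8.61, 4.88 and 9.67 CPM in NT cortex and 51.3, 24.4, 18.0 and 9.22 CPM in R6/2 cortex. It did not pass the filter there. The pooled reads (57 against 16) made a ratio of 2.53 (95% interval 1.43 to 4.72, counting error only), and a fit without the filter gave 1.37 (adjusted p = 0.080). In striatum, *Rian* had 12.4 to 26.8 CPM in NT and 13.2 to 37.7 CPM in R6/2 samples, and the log2 difference was 0.09 (adjusted p = 0.97). *Mirg*, downstream in the domain, had at most 5 reads in a sample and 0 in 7 of 16 samples. None of the other 4 listed genes of the domain had enough reads to be tested.

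The least abundant RNAs showed no difference between genotypes that this depth could resolve. *Miat* had 12.9 to 35.2 CPM in NT and 12.8 to 32.3 CPM in R6/2 cortex, and its log2 difference was -0.16 (SE 0.36, adjusted p = 0.87). *Neat1* had 20.8 CPM on average in NT and 8.62 CPM in R6/2 striatal samples of 1 count set, and 4.56 and 2.05 CPM in those of 2 sets. On 26 and 14 pooled reads its ratio was 0.514 (95% interval 0.248 to 1.02), and the unfiltered fit gave -1.07 (adjusted p = 0.40). *Snhg14* had a ratio of 1.33 (0.753 to 2.37) in striatum and 0.628 (0.342 to 1.14) in cortex. Of 13 proteins of paraspeckles and nuclear speckles, 9 were tested in cortex and 13 in striatum, and 0 passed with edgeR or DESeq2 in either region (2 and 5 at an unadjusted p under 0.05). Of 7 genes around *Snhg14* in the Snrpn-Ube3a domain, 3 were tested in each region and 0 passed with edgeR, with 1 in cortex and 0 in striatum at an unadjusted p under 0.05 and by DESeq2. Of 17 other brain long noncoding RNAs, 1 of 5 tested rose in cortex (*Kcnq1ot1*, the imprinted antisense RNA of *Kcnq1*, 1.15, adjusted p = 0.016), and 0 of 9 passed in striatum with edgeR or DESeq2 (3 at an unadjusted p under 0.05).

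The regions differed for most of the tested RNAs. In NT mice 4 of 6 passed (background 33.4% of genes) and in R6/2 mice 5 of 6 (background 27.3%). *Miat*, called in both, passed the filter on low counts only through cortex, the region where it was high. Its place among the 6 is therefore not independent of its difference. Both comparisons come from 1 fit over the 16 samples, which share the count-set term and the estimate of spread, and each shares its groups with the comparisons of genotypes. *Miat* was lower in striatum, at 0 to 4.87 CPM in NT and 2.07 to 4.72 CPM in R6/2 mice. Its cortical and striatal samples did not overlap in either genotype. The log2 differences were -3.35 (SE 0.70, adjusted p = 7.0e-04) in NT and -2.61 (SE 0.61, adjusted p = 0.0025) in R6/2 mice.

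*Malat1* was higher in striatum by 2.22 (SE 0.21, adjusted p = 1.0e-07) in NT and by 1.21 (SE 0.22, adjusted p = 2.3e-04) in R6/2 mice on the log2 scale. These fits hold the number of count sets constant at 1. Without the term the R6/2 value was 0.55 (adjusted p = 0.50), and R6/2 samples with 2 sets (2895 and 3446 CPM) lay below all 4 R6/2 cortical samples. *Snhg12* was higher in striatum by 1.40 (adjusted p = 0.0022) in NT and 1.07 (adjusted p = 0.0020) in R6/2 mice, again only with the term (0.75 and 0.51 without it, adjusted p = 0.33 and 0.46). *Snhg11* was lower in striatum by -1.51 (SE 0.32, adjusted p = 0.0011) in R6/2 mice, where the regions did not overlap. In NT mice its difference of -0.73 did not pass (adjusted p = 0.077). It turned to 0.04 without cortex NT sample 1, and passed without cortex NT sample 2 or 3 (adjusted p = 0.025 and 0.035).

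*Meg3* was lower in striatum by -0.74 (SE 0.22, adjusted p = 0.0125) in NT and -0.92 (SE 0.22, adjusted p = 0.0029) in R6/2 mice. The NT value was -0.36 (adjusted p = 0.20) without cortex NT sample 1, and it did not pass without cortex R6/2 sample 2 (0.091) or striatum NT sample 4 (0.087). The R6/2 value did not pass without cortex R6/2 sample 2 (0.054). With genomic reads added to the counts the differences were -0.29 (adjusted p = 0.32) and -0.49 (0.087), and without the count-set term -0.37 (0.38) and -0.57 (0.19). *Rian* had a difference of 1.28 in NT (adjusted p = 0.066) and 0.06 in R6/2 mice (0.94), and the first passed without cortex NT sample 1 (0.027), cortex R6/2 sample 1 (0.032), 2 (0.045) or 4 (0.048). Oligodendrocyte markers summed to 12738 to 29970 CPM in striatum and 3525 to 7120 CPM in cortex, and 5 of 6 in NT and 6 of 6 in R6/2 mice were higher in striatum. Pan-neuronal markers summed to 2505 to 4424 CPM in striatum and 3866 to 5505 CPM in cortex of NT mice and to 2056 to 2851 and 3704 to 4428 CPM in R6/2 mice, and 2 of 5 in NT and 3 of 5 in R6/2 mice were lower in striatum. The part of both lists in these differences was not tested.

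The classes of reads differed from RNA to RNA. Of the *Malat1* reads 99.4% were known, and of *Snhg12* 88.6% and *Snhg11* 80.4%, against 70.6% of the reads of all annotated genes. Genomic reads made up 7.81% over all genes but 77.0% of *Snhg14*, 50% of *Mirg*, 49.1% of *Miat*, 33.5% of *Rian* and 28.9% of *Meg3* reads. NIC reads, which join known splice sites in new ways, made up 30.7% of *Miat* and 28.0% of *Meg3* reads, against 4.10% over all genes. *Meg3* alone had 304 isoforms with a read and 41 with at least 10.

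**Figure D4:**
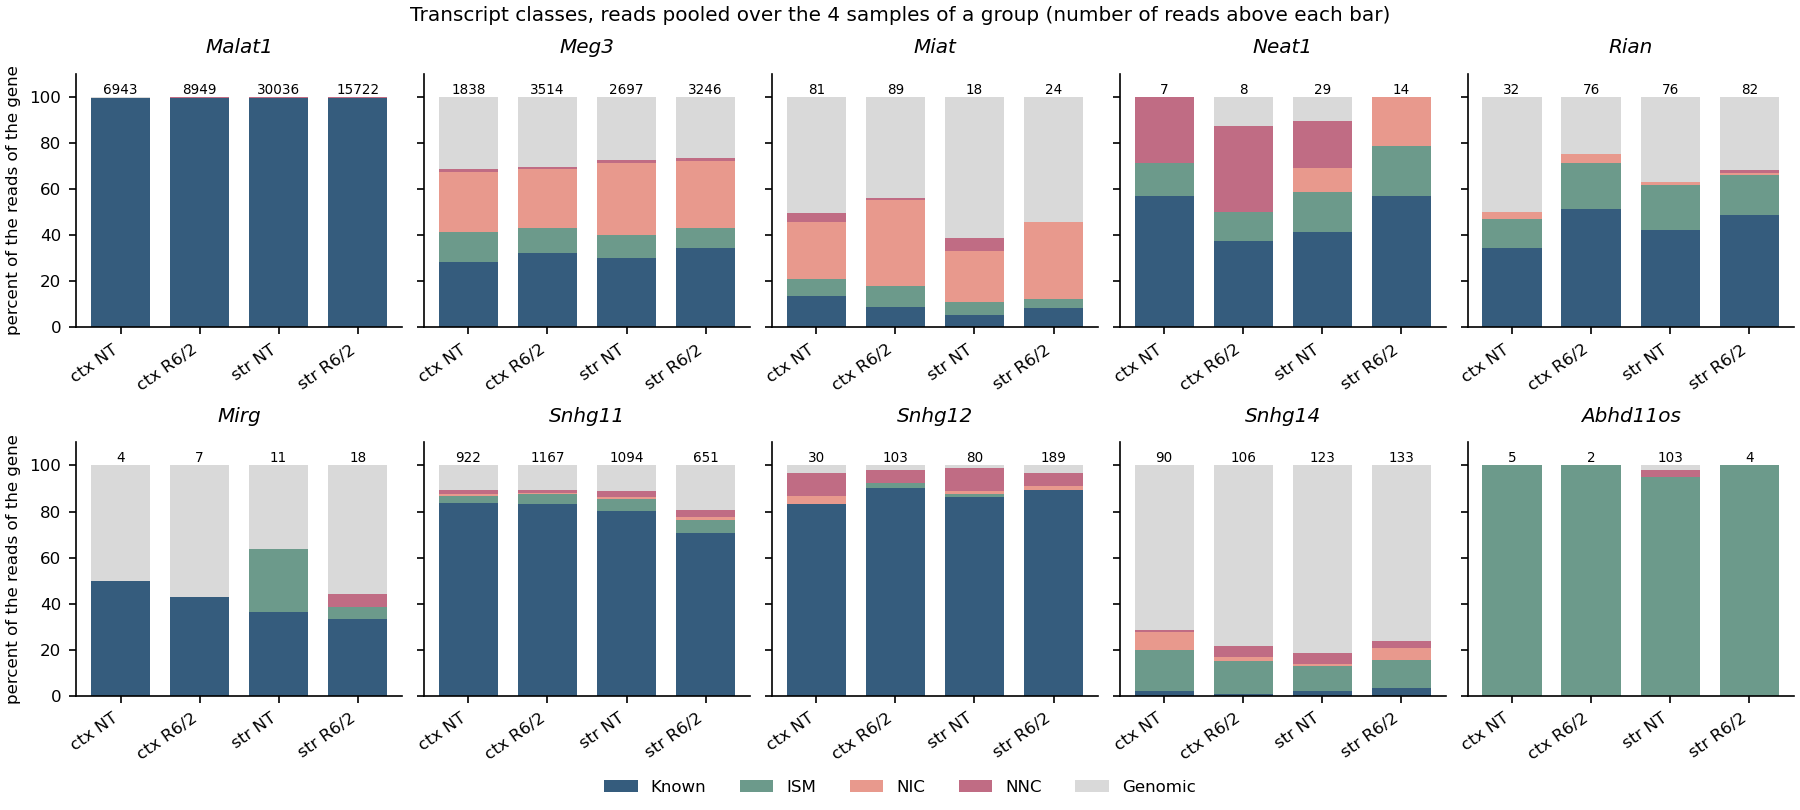
Share of known, ISM, NIC, NNC and genomic reads (vertical axis, percent of the reads of the gene) for each RNA and group, pooled over the 4 samples of a group, with the number of reads above each bar. *Malat1* is almost wholly known, *Snhg14* mostly genomic and *Abhd11os* almost wholly ISM in every group.

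No RNA passed the test of class use between genotypes with edgeR's diffSpliceDGE, 0 of 6 in cortex and 0 of 8 in striatum, with 0 at an unadjusted p under 0.05 and 0 by the gene-level F test in both regions. The backgrounds were 0.0127% and 0.0315% of tested genes. For *Snhg11* the genomic share was 10.3, 8.65, 16.1 and 18.2% in NT striatum and 22.9, 15.0, 14.4 and 31.8% in R6/2 striatum. R6/2 samples were higher than NT samples within each number of count sets, but the gene did not pass (genomic part, unadjusted p = 0.026, adjusted p of the gene 1). For *Meg3* it was 16.3 to 21.6% in the 4 striatal samples with 2 count sets and 37.3 to 62.6% in the 4 with 1, without overlap, and 25.9 to 39.2% in cortex.

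Single isoforms dominated most of the RNAs. The unspliced *Malat1*-001 (ENSMUST00000172812, 1 exon) took 99.4 to 99.9% of the gene reads in each of the 16 samples. *Snhg12*-002 (5 exons, 606 nt) took 82.8, 85.1, 83.5 and 90.2% of pooled reads in NT and R6/2 cortex and NT and R6/2 striatum. The unspliced *Rian*-003 (3476 nt) took 54.2 to 57.9% in the 4 groups. The second-ranked *Rian* isoform had 13 reads. Of 54 *Neat1* reads 27 were assigned to the unspliced *Neat1*-001, whose annotated length is 20771 nt. A read assigned to so long a model need not span it, and the files give the length of the model only.

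*Miat* and *Snhg14* had no dominant isoform. The NIC isoform TALONT000643265 (6 exons, 3400 nt) had 28 *Miat* reads, more than the annotated *Miat*-001 (7 exons, 9163 nt) with 18. *Miat*-001 holds TGTGTG, the UG-repeat motif bound by TDP-43, 31 times. Overlapping matches were counted, so 1 long repeat counts many times. The median was 5 in transcripts of similar length, of which 3.70% held as many. It holds GGACT, a core of the m6A motif, 19 times (median 8, 1.35% as many). *Malat1* holds them 3 and 9 times (medians 4 and 7). Both shares of *Miat*-001 were the lowest among the 10 RNAs. *Neat1*-001 holds TGTGTG 48 times (median 8, 9.4% as many), and *Snhg11*-001 holds GGACT 11 times (median 6, 6.1% as many). *Meg3*-005 holds TGTGTG 0 times (median 1). The top *Snhg14* isoform, an ISM of 1 exon and 380 nt, had 18 reads. *Mirg*-008 had 11 of 20 reads.

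*Meg3* and *Snhg11* had several isoforms with enough reads to compare. *Meg3*-005 (3 exons, 1498 nt) took 42.3, 36.8, 27.4 and 31.6% of gene reads in NT cortex and 46.9, 42.2, 39.8 and 40.9% in R6/2 cortex, which overlap only through NT sample 1. In striatum it took 30.2 to 48.9% in NT and 39.9 to 51.5% in R6/2 samples. The NIC isoform TALONT000550904 (8 exons, 1900 nt) came second, with 23.2, 21.2, 19.3 and 19.3% of pooled reads in the 4 groups in the same order. The ISM isoform TALONT000550917 took 5.57 to 6.19%. *Snhg11*-001 (5 exons, 5864 nt) took 72.1 to 84.3% of gene reads in the 8 cortical samples and 65.6 to 75.3% in the 8 striatal samples, and *Snhg11*-002 (6 exons, 1329 nt) 7.30 to 17.6% and 8.22 to 21.0%. In NT striatum *Snhg11*-002 had 12.6, 16.4, 19.1 and 21.0%, and in R6/2 striatum 9.91, 14.9, 13.8 and 8.22%.

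**Figure D5:**
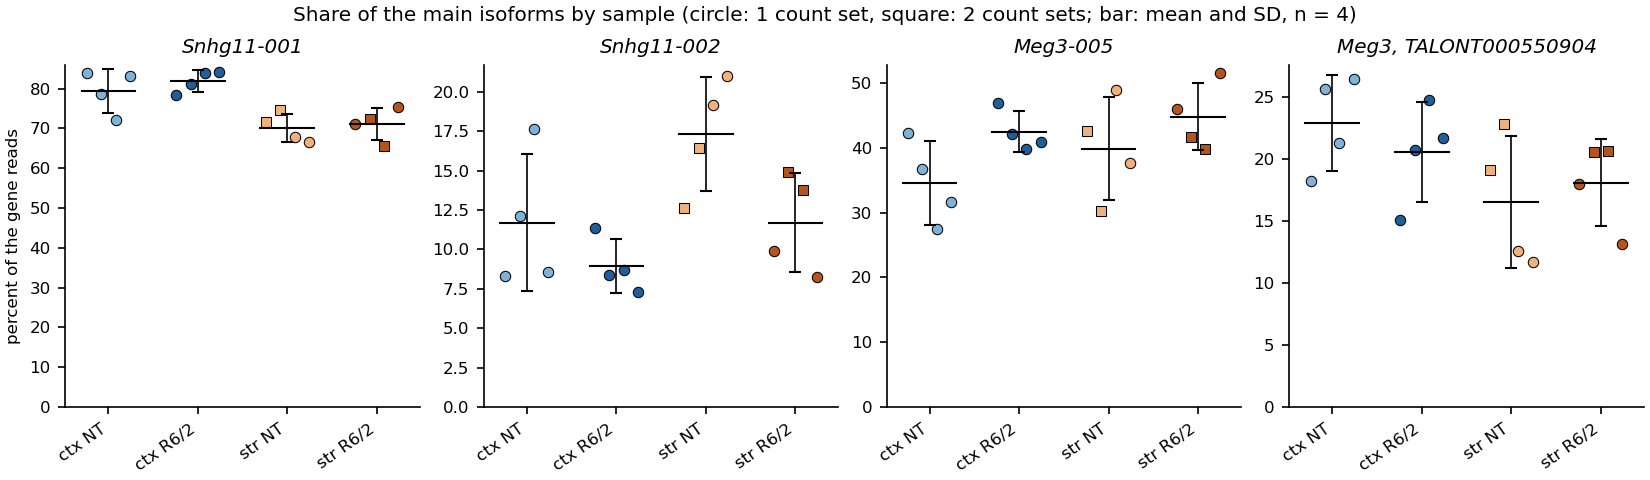
Share of gene reads (vertical axes, percent, linear from 0) taken by *Snhg11*-001, *Snhg11*-002, *Meg3*-005 and the *Meg3* isoform TALONT000550904 in each sample. Circles have 1 and squares 2 count sets, and lines show the mean and SD of 4 samples. *Snhg11*-001 takes 65.6 to 75.3% in striatum and 72.1 to 84.3% in cortex, ranges that overlap.

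Isoform use did not differ between genotypes by diffSpliceDGE for any tested RNA, 0 of 3 in cortex (background 0.36%) and 0 of 4 in striatum (background 0.451%), with 0 at an unadjusted Simes p under 0.05. The gene-level F test called 0, with *Meg3* in striatum at an unadjusted p of 0.011 (adjusted p = 0.23). There its isoforms TALONT000551223, TALONT000551015 and TALONT000551179 were lower relative to the gene in R6/2 mice (-1.19, -0.64 and -0.86 on the log2 scale, unadjusted p = 0.0041, 0.015 and 0.018). No other *Meg3* isoform in striatum was under 0.05. Between striatum and cortex 0 of 5 passed (background 1.51%), and 2 had an unadjusted p under 0.05. These were *Malat1* (adjusted p = 0.20) and *Snhg11* (adjusted p = 0.44). The gene-level F test called *Snhg11* (adjusted p = 0.027). With other sets of isoforms, the block, no term or the first count set its adjusted p was 0.19 to 1. Relative to the gene, 3 of its 7 tested isoforms had an unadjusted p under 0.05. On the log2 scale the values for striatum over cortex were 1.66 for *Snhg11*-004 (unadjusted p = 0.0038, 24 reads in all), 1.79 for the NNC isoform TALONT000807280 (0.010, 17 reads) and 0.46 for *Snhg11*-002 (0.036). For the main isoform *Snhg11*-001 it was -0.12 (unadjusted p = 0.48).

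By the same measure of likeness as for *Abhd11os*, the genes most like *Malat1* over the 16 samples were *Sh3bgrl3* (r = 0.95), *Pcp4* (r = 0.95) and *Mt1* (r = 0.95). Those most like *Meg3* were *Nsfl1c* (r = 0.96), *Ctps2* (r = 0.91) and *Particl* (r = 0.89). *Malat1* differed by 1.85 on the log2 scale between numbers of count sets, which these correlations also hold.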

How the data were processed

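TRIzol-extracted RNA of 16 samples was treated with a 5′-phosphate-dependent exonuclease, copied to cDNA, amplified and sequenced by PacBio Iso-seq. Per the study's methods, the authors required both primers and the poly(A) sequence in a read. Alignment to mm10 used minimap2 2.17-r941 (version per the submitters' processing notes), TranscriptClean then repaired small errors and splice junctions, and TALON named the isoforms by Ensembl annotation. The deposited values are counts, whole numbers of reads per isoform before TALON's filter. There were no molecular identifiers, so intervals and the floor of 3 counts cover counting error only. Levels are compared between samples of 1 gene, since long molecules can be captured less well.

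Region, genotype and sex came from the labels, age from the study's methods. The 2 count sets of 4 striatal samples were summed. Gene counts are known, ISM, NIC and NNC reads. Differential expression was tested over all genes with edgeR 4.0.16 (R 4.3.3: TMM, filterByExpr, quasi-likelihood test, Benjamini-Hochberg, threshold 0.05), within a region for genotypes and over 16 samples for regions and the interaction. The number of count sets was a term where striatal samples entered. Isoform and class use were tested with diffSpliceDGE over parts with at least 10 reads (Simes). CPM was computed over the normalized libraries of all 16 samples. Pooled ratios have exact conditional binomial 95% intervals (scipy 1.17.1), computed in Python 3.11.15 with pandas 2.3.3. For likeness, log2 CPM with a prior count of 2 was correlated. Scripts were first tested on simulated data.

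The members, lists, tests and alternatives were chosen with earlier results of these data known. All 10 members are named, with their 3 isoforms of most reads outside the genomic class. Of the other lists, genes that passed a test in either region could be named, and 1 listed marker is not reported here. The labels give separate samples per group, so p-values measure the spread between these samples. Alternatives were upper-quartile normalization, DESeq2 1.42.0, no filter on low counts, genomic reads added, ISM reads left out, a block for the sample number, 1 fit for all samples, no count-set term, the first count set only and leaving out each sample. Ratios within 1 and 2 count sets, the comparison of the count sets and the fit without the term for the other lists were added after seeing the data. Positions are from GENCODE M21 and RefSeq.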

Additional observations from a re-analysis of the deposited data

How the results depend on the processing

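Of 183 counts of called RNAs under alternatives, 172 stayed within 1.5 times the main count. The 183 include the interaction and the tests of isoform and class use, whose main count was 0. There a count that stayed at 0 was scored as unchanged, so the 172 do not measure the stability of the calls alone. Of 625 values of single RNAs, 572 kept their direction and their side of the threshold. The number of RNAs called in R6/2 against NT striatum (4 of 6) was 2 with ISM reads left out (where *Abhd11os*, with 109 of its 112 gene reads ISM, could not be tested and *Snhg12* had an adjusted p of 0.053). The number was 1 (*Abhd11os*) without the count-set term. With the first count set only and no term it was 0, and there too *Abhd11os* could not be tested. In the comparison of striatum with cortex it was 2 in NT (main 4) and 2 in R6/2 mice (main 5) both without the term and with the first set only. Between genotypes, dropping the term leaves the difference between count sets in the residual spread. Between regions that difference also enters the estimate, since only striatal samples have 2 sets. The gene-level F test called 1 RNA for isoform use between regions. The *Rian* difference between regions in R6/2 mice (0.06) was -0.40 without the term and -0.19 with the first set only. When each sample was left out in turn, the count in cortex ran from 0 to 2. The log2 differences in cortex ran from -0.22 to 0.055 for *Malat1*, -0.44 to 0.031 for *Miat* and -0.38 to 0.38 for *Snhg11*. That of *Rian* in striatum ran from -0.10 to 0.26 between genotypes and from -0.24 to 0.62 between regions in R6/2 mice, and that of *Snhg11* between regions in NT mice from -0.93 to 0.039. *Abhd11os*, *Malat1* and *Snhg11* in striatum passed with any 1 sample left out.

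Between cortex and striatum of 1 genotype, deviations of samples with the same number had r from -0.23 to 0.22 in NT and from -0.04 to 0.40 in R6/2 mice (7390 genes). Between genotypes, which are different mice, r ran from -0.57 to 0.62. These values do not decide whether the same number means the same mouse, and the numbers were not read as pairs. With the replicate block the counts of called RNAs were 1 in cortex, 3 in striatum, 3 and 5 between regions in NT and R6/2 mice and 0 for the interaction, and 0 for each test of isoform and class use. *Snhg12* in striatum had an adjusted p of 0.083 with the block, *Meg3* between regions in NT mice 0.11, and the *Snhg11* difference in cortex was 0.014.

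Depth limited the results on *Neat1*, *Mirg*, *Snhg14*, *Miat* in striatum and *Abhd11os* in cortex, with 32 or fewer reads in a group. In single groups *Rian* (16 reads) and *Snhg12* (29 reads) in NT cortex and *Abhd11os* in R6/2 striatum (4 reads) also lay within this limit. The cortical call of *Snhg12* thus rests on few NT reads. The cause of each change with the setting was not tested.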
